A study of Mus musculus with 150 samples.

Results

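F1 hybrids of the mouse strains C57BL/6J and DBA/2J were compared across age in liver. The comparison set 6 old mice of 540 days or more against 4 young mice of 210 to 216 days, in all 10 of the 150 samples of the series. The members were chosen by their labels alone, as every B6D2F1 or D2B6F1 mouse in either age range. The series measured liver RNA in the BXD family, recombinant inbred strains bred from the same 2 parents, together with the parents and both reciprocal F1 crosses, on 2 diets and at several ages. The 10 F1 mice used here were all female. Livers were taken after perfusion under Avertin anaesthesia and frozen, and polyadenylated RNA was sequenced as read pairs.

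A first-generation hybrid carries 1 copy of each parental genome, so every F1 mouse has the same autosomal genotype, and differences between mice of 1 cross come from age, diet, environment and chance. B6D2F1 and D2B6F1 are the reciprocal crosses, named with the mother's strain first, and differ in the mother and in the parental origin of the mitochondria and of imprinted alleles. In ageing mouse liver, immune cells accumulate, cell-cycle inhibitors such as Cdkn1a become more common, and products of male- and growth-hormone-driven genes such as the major urinary proteins decline. These points are background, not results.

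The old group held 2 B6D2F1 mice on the chow diet (CD; H1227 at 640 days and H1569 at 552 days), 2 B6D2F1 mice on the high-fat diet (HF; H2288 and H2290, both 547 days), 1 D2B6F1 mouse on CD (H0646, 545 days) and 1 on HF (H0642, 540 days). The young group held 1 mouse of each cross on each diet: B6D2F1 on CD (H1223, 216 days) and on HF (H1302, 216 days), D2B6F1 on CD (H1154, 210 days) and on HF (H1150, 214 days). The case identifiers, read as collection sessions, put all 4 young mice in 1 session that held no old F1 mouse, so age and session cannot be told apart among the hybrids. Each mouse is 1 animal with 1 library. The column of H1154 is repeated under a young BXD101 mouse, and the values gave whole reads with the mapped reads of H1154 (100% of values) and not with those of the other mouse (0%), so they were kept for H1154. Expression is given as FPKM, fragments scaled by transcript length and by the library's mapped fragments, as the authors deposited it.

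The libraries had 19882032 to 30678472 input read pairs. Albumin (Alb) stood at 20852 to 39248 FPKM and the apolipoprotein Apoa1 at 3973 to 17380 FPKM in every F1 liver, both defining transcripts of hepatocytes. Of 8 library measures, such as depth, share of uniquely mapped reads and number of genes above 0.5 FPKM, 0 differed between the age groups past the threshold (exact permutation test over all 210 splits, two-sided, lowest p = 0.305 for the summed mitochondrial FPKM, adjusted p = 1). A test of means does not show that 2 old libraries, H1227 and H1569, lay apart. Their slopes of log2 expression on log2 transcript length were -0.117 and -0.132, against 0.0295 to 0.0595 in the others. Reads unmapped as too short made up 9.22% and 10.08% in them, against 4.54% to 7.68%.

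The libraries of H1227 and H1569, the old B6D2F1 mice on CD, stood apart from the other 8. They lay at 94.9 and 95.3 on the first principal component, which held 73.4% of the variance of log2(FPKM + 1), and the rest lay between -31.3 and -10.6. The macrophage lysozyme Lyz2 read 4119 and 4329 FPKM in them and 33.3 to 82.2 in the others, and the scavenger receptor Marco 187 and 186 against 1.57 to 4.42. Of 13366 genes tested, 32.8% were above and 29.8% below all 8 other F1 livers in both of them.

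Other genes showed how wide the gap was. Haemoglobin beta (Hbb-bs) stood at 2470 and 2593 FPKM against 29.3 to 251, and the cell-cycle inhibitor and senescence marker Cdkn2a at 47.2 and 43.8 against 0.192 to 0.977. The lipid-sensing receptor Trem2 read 121 and 123 against 0.203 to 1.7. On the low side were the iron hormone hepcidin (Hamp; 28.7 and 35.7 against 291 to 2580), the fatty acid hydroxylase Cyp4a10 (10.1 and 10.6 against 183 to 1025) and the mitochondrially encoded mt-Nd4l (435 and 410.2 against 1471 to 4674). Among 131 inbred female libraries, 2 had Hbb-bs at or above the lower of these 2 values, 3 had a mitochondrial sum as low, 6 had as low a slope of expression on transcript length, and 0 had Cdkn2a as high.

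The 2 libraries were also the closest of the 45 pairs of F1 libraries. A chi-square per gene on reads recovered from FPKM had a median of 1.31 between them, where counting noise alone gives 0.455 and the next pair, H2288 and H2290, gave 2.02. They therefore differed by more than counting noise, came from different flow cells, and are labelled as mice of different age. Their case identifiers, read as collection sessions, also differ. They were kept as 2 mice, and the main results are also given without them. With the 2 averaged as 1 mouse, the age comparison called 0 genes higher and 21 lower. Whether they share a source was not tested, and a median above counting noise does not settle it.

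**Figure D1:**
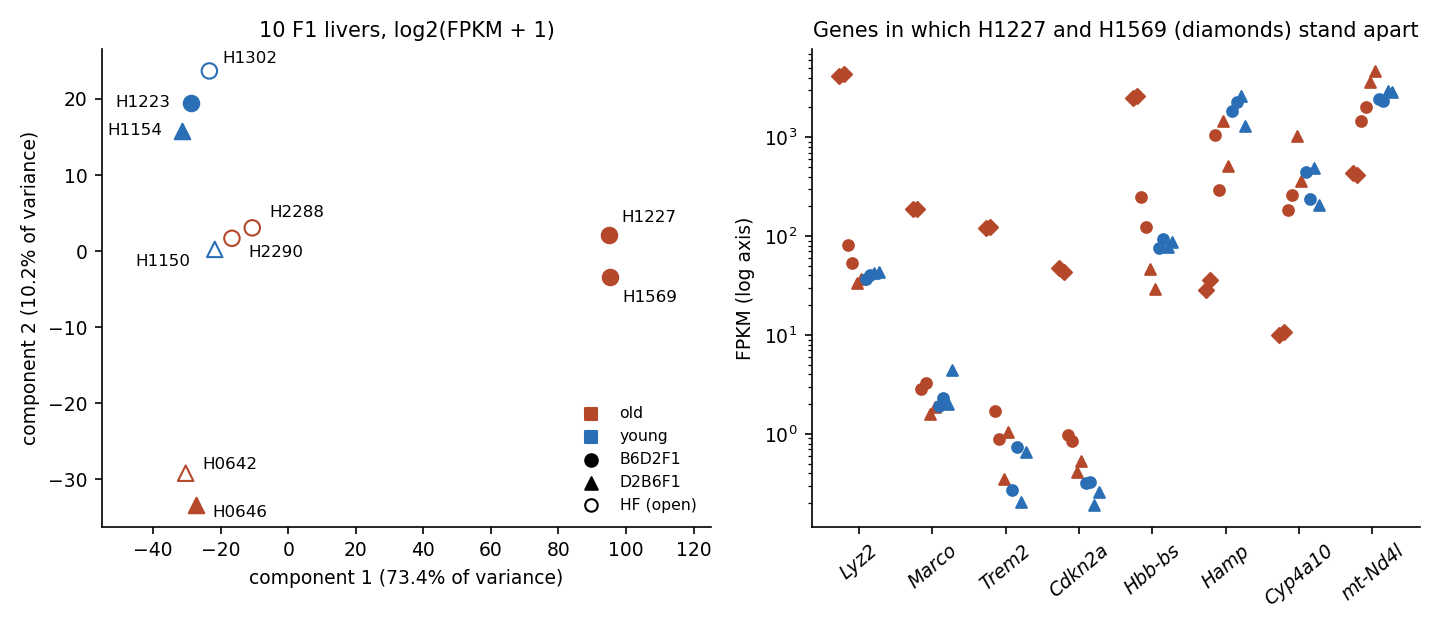
Left, the first 2 principal components of log2(FPKM + 1) in the 10 F1 livers (filled, CD; open, HF; circles, B6D2F1; triangles, D2B6F1). H1227 and H1569 lie near 95 on component 1 and the other 8 mice between -31.3 and -10.6. Right, FPKM on a log axis for 8 genes, 1 point per mouse, with H1227 and H1569 as diamonds apart from the rest in each gene.

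The first question was which genes differ between old and young hybrids. With diet as a covariate, 25 of 13366 genes fell in old F1 livers and 0 rose (limma on log2(FPKM + 1), adjusted p under 0.05; 0.187% of the genes tested were called lower and 0.0% higher). At an unadjusted p under 0.05 there were 731 genes higher (5.47%) and 1796 lower (13.4%), and limma-voom on recovered reads called 0 higher and 26 lower. Of the 25 genes, 20 are genes of the pancreatic acinar cell, which makes digestive proteases, lipases, amylases and nucleases. The other 5 were Cd163, Lor, Snora68, Mir6946 and Mir6922. The calls depended on the mice fitted. On the 1 flow cell that held 4 old and 4 young mice 0 genes passed, with Ctrb1 at -5.87 (adjusted p = 0.0732 by limma) and Cd163 at -1.24 (adjusted p = 0.0809), and in 1 fit of all females only Atat1 passed, lower, with Ctrb1 at -5.83 (adjusted p = 0.149). Leaving out H1154, the highest in pancreatic genes, gave 26 lower and 0 higher.

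The pancreatic genes carried the comparison, so the promoters of 4 of them, 2 proteases and 2 lipases, are shown (RefSeq, GRCm38.p6, 250 bases before to 50 after the start, 5′ to 3′ on the gene's strand). Ctrb1 encodes chymotrypsinogen B1 (chr8:111690961-111691260, minus strand), Prss2 an anionic trypsinogen (chr6:41521526-41521825, plus strand), Pnlip pancreatic lipase (chr19:58670115-58670414, plus strand) and Cel carboxyl ester lipase (chr2:28563354-28563653, minus strand). Capitals mark matches on either strand to CACCTG and TTTCCC, the 2 parts of the element bound by the acinar factor PTF1, and Pnlip has none.
Ctrb1: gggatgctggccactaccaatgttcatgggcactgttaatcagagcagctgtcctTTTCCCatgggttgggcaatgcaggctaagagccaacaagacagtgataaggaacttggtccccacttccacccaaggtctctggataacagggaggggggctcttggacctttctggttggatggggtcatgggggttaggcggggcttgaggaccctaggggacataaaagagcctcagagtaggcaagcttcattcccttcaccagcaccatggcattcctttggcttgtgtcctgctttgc
Prss2: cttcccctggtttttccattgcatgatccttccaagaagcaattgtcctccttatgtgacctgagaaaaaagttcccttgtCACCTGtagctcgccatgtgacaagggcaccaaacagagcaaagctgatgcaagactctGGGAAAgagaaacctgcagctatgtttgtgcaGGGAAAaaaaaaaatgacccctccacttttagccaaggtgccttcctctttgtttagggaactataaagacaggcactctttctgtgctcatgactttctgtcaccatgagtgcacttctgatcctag
Pnlip: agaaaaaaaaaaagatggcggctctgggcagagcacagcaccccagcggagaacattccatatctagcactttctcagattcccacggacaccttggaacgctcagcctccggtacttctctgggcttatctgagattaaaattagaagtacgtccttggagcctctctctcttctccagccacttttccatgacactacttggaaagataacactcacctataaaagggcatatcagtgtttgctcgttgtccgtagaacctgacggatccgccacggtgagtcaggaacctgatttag
Cel: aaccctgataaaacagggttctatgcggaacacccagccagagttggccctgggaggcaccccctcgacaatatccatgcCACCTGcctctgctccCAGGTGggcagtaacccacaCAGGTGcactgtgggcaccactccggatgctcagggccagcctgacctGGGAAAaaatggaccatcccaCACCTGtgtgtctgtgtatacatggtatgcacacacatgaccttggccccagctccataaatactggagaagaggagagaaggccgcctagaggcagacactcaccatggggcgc
CACCTG was found in 7 of 13 pancreatic promoters of the list (53.8%) and in 20.2% of all 32851 promoter windows, and TTTCCC in 8 of 13 (61.5%) and in 25.2%. Both stood in 4 of 13 (30.8%) and in 4.86% of all windows. These letters describe the promoters and say nothing of binding in these livers.

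Ctrb1 (chromosome 8, 111686510 to 111691010, GRCm38) had 144 and 90.3 FPKM in the young B6D2F1 and 382 and 30.2 in the young D2B6F1 mice, and 1.27, 1.32, 1.25, 1.11, 0.0599 and 1.65 in the 6 old mice. The groups did not overlap, and the change was -5.79 (SE 0.57) on the log2(FPKM + 1) scale, adjusted p = 0.00446 by limma. Prss2 had 43.4, 35.8, 160.1 and 18.3 FPKM in the young and 0.36, 1.15, 0.282, 0.439, 0.0652 and 0.448 in the old mice, a change of -5.06 (SE 0.45; adjusted p = 0.00446). In each of these genes H1154 was the highest of the young mice and H1150 the lowest.

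Lipid-digesting enzymes fell in the same way. Pnlip read 11.7 to 100.0 FPKM in young and 0.0358 to 0.492 in old mice (-4.72, SE 0.42), its cofactor colipase (Clps) 11.6 to 115 and 0 to 1.07 (-4.64, SE 0.43), and Cel 9.59 to 73.3 and 0 to 0.273 (-4.48, SE 0.41). The lipase-related Pnliprp1 changed by -3.69. Limma's adjusted p was 0.00446 for each of those 3 and 0.00758 for Pnliprp1.

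Proteases and their relatives made up most of the remainder. Changes on the log2(FPKM + 1) scale were -4.41 and -4.38 for the elastases Cela2a and Cela3b, -4.18 and -2.87 for the chymotrypsin-like Ctrl and Ctrc, and -4.42 and -3.19 for the carboxypeptidases Cpa1 and Cpb1. The trypsinogens Try4 and Try5 and the predicted 2210010C04Rik changed by -4.35, -3.16 and -3.69. The amylases Amy2a3 and Amy2a2 changed by -4.75 and -2.90, the ribonuclease Rnase1 by -3.72, and the zymogen granule proteins Sycn and Zg16 by -3.97 and -3.51. Trypsinogen and amylase copies are nearly identical, so the split of reads within these families is uncertain.

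Of the 15 exocrine pancreas markers listed, 12 fell, and all 15 had estimates below 0, as had 52.9% of all genes tested. Some of them, such as Pnlip and Cel, were under 0.5 FPKM in every old mouse and passed the filter only through the young mice. Such markers could hardly have estimates above 0, so the shares over all genes are no fair comparison for this list. Their median was -4.38, against -0.02 over all genes tested. Amy2a5, Reg1 and Cela1 did not pass, with adjusted p of 0.067, 0.132 and 0.186 by limma. Old and young mice did not overlap in 14 of the 15, where 4.7% of all genes tested had all old mice below all young mice. The exception was Cela1, an elastase also made outside the pancreas, with 62, 55.7, 151 and 22.4 FPKM in young and 36.2, 37.3, 14.8, 17.4, 5.68 and 9.87 in old mice. Without H1227 and H1569, 15 of 13028 genes fell and 0 rose (0.115% and 0.0%), 11 of them among the 25. The 14 others of the 25 had the same direction and missed the threshold, with adjusted p of 0.0517 for Pnliprp1, Rnase1 and Amy2a3, 0.0548 for Try5, 0.0678 for Cpb1, 0.0682 for 2210010C04Rik, 0.071 for Try4, 0.112 for Zg16 and Amy2a2, and 0.142 for Ctrc by limma, beside Lor, Snora68, Mir6946 and Mir6922, described further on. The 4 genes called in that set alone were Fads2, Mir6910, 1810019D21Rik and Egfr, the epidermal growth factor receptor, at -1.17 (adjusted p = 0.0457) without the 2 mice and -0.54 (adjusted p = 0.454) with them. In that set 8 of the 12 markers remained past the test, the median was -4.26, and all 15 lay below every young mouse (6.27% of all genes did).

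Summed over the 15 markers, young F1 livers held 566, 394, 1573 and 162 FPKM and old ones 7.19 to 46.8. In bulk tissue, fewer cells of a type and less RNA per cell cannot be told apart. Whether these transcripts came from cells of the liver or from other tissue in the sample was not tested. The sum was not particular to young hybrids: 19 of 49 young inbred and 21 of 62 old inbred livers were at or above the lowest young hybrid, with ranges of 6.68 to 7519 FPKM in young and 8.43 to 4721 in old inbred mice. Sessions differed: the 1 inbred liver of the young hybrids' session, a DBA/2J mouse, held 206 FPKM, and 6 inbred livers of the session of H0646 and H0642 held 9.98 to 18.9. The 3 inbred livers of the session of H2288 and H2290 held 13.5 to 20.3 FPKM, and those of the sessions of H1227 (13 livers) and H1569 (7 livers) held 19.7 to 1883 and 34.4 to 4929. Age and session cannot be told apart among the hybrids. With session added to a fit of all females, 0 genes passed, and the pancreatic genes that fell kept their direction. The young hybrids' session held 1 inbred liver in that fit, so it cannot settle the part of session in the pancreatic fall.

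**Figure D2:**
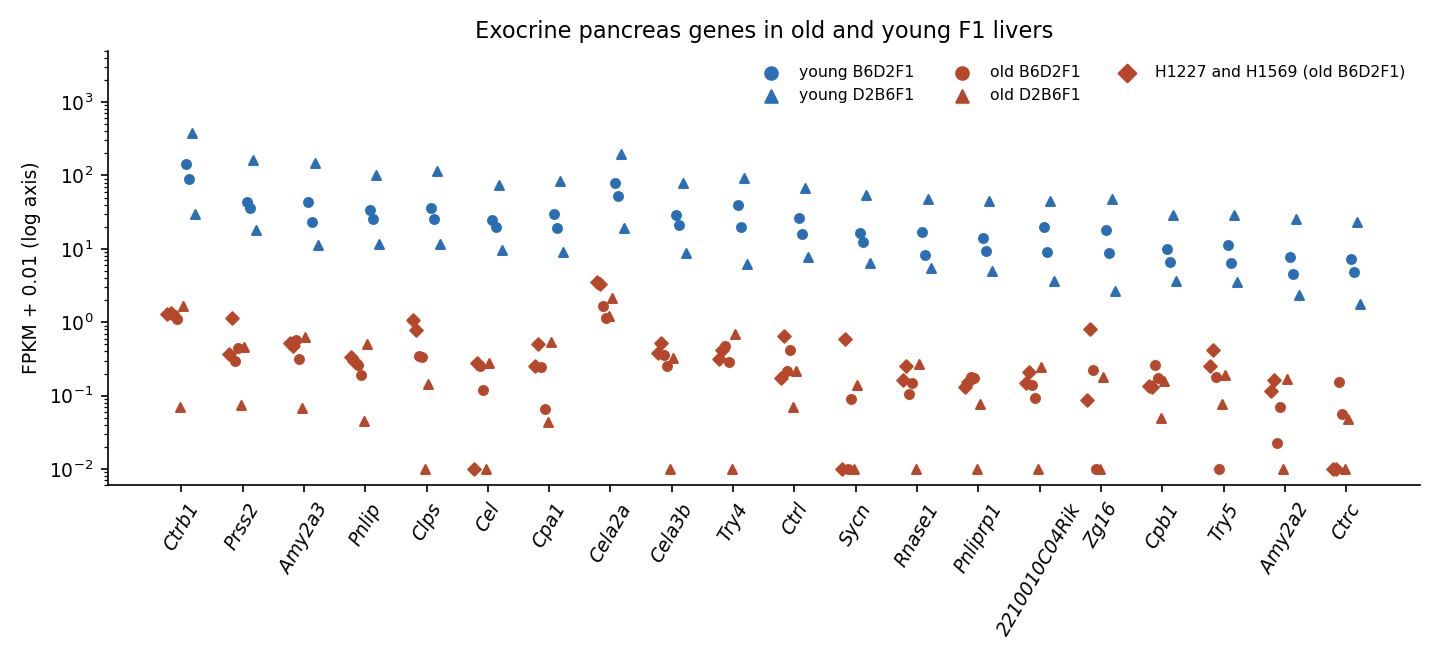
FPKM plus 0.01 on a log axis for the 20 pancreatic genes that fell, 1 point per mouse (blue, 4 young; red, 6 old; diamonds, H1227 and H1569). In every gene drawn the young mice lie above the old mice, and the D2B6F1 mouse H1154 is highest.

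Cd163, the haptoglobin-haemoglobin scavenger receptor of resident macrophages, was the only one of 20 Kupffer cell and macrophage markers to pass the test. It read 6.55, 6.18, 3.85 and 5.39 FPKM in young and 1.56, 1.06, 1.89, 1.64, 1.95 and 1.69 in old mice (chromosome 6, 124304700 to 124330527). The old mice were all lower, H1227 and H1569 included, although those 2 libraries had summed macrophage marker levels of 10809 and 10764 FPKM against 244 to 622 in the other 8. The change was -1.29 (SE 0.15; adjusted p = 0.00804 by limma), and -1.21 (adjusted p = 0.0382) without them.

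The rest of the macrophage list did not follow. Over the 19 markers tested both with and without H1227 and H1569, its median was 1.03 with all 10 mice and -0.37 without those 2, and 0 members rose. The antigen-presentation chain Cd74 read 2671, 2612, 174, 76.6, 43.6 and 49.3 FPKM in the old and 91.7, 127, 106 and 109 in the young mice, highest in H1227 and H1569, above the young range in H2288 and below it in the other 3. The melanosomal glycoprotein Gpnmb, a marker of lipid-loaded macrophages, stood at 0.076 to 0.603 FPKM in old and 0.0192 to 0.0995 in young mice, under the filter of 0.5.

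Lor encodes loricrin of cornified epithelium and fell by 2.94 on the log2 scale (SE 0.34; adjusted p = 0.0099 by limma). Without H1227 and H1569, the lowest of the old mice, the change was -2.63 and missed the threshold (adjusted p = 0.0517). Young mice held 6.41, 17.7, 19.5 and 21.6 FPKM and old mice 0.11, 0.211, 1.68, 1.16, 1.82 and 2.59. The squamous keratin Krt4 had the same arrangement without passing, with 5.65, 7.05, 13.4 and 21.1 FPKM in young and 0, 0.044, 0.0432, 0.021, 2.02 and 2.06 in old mice (-2.95, adjusted p = 0.0671). Both are genes of squamous epithelium, and both were highest in the 2 young D2B6F1 mice.

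The other 3 calls rest on few reads. Snora68, a small nucleolar RNA, had 2 to 4 recovered reads in old and 5 to 9 in young mice, and the microRNA loci Mir6946 and Mir6922 had 1 and 0 to 2 reads in old and 3 to 5 and 3 to 7 in young mice. Their changes were -0.80, -1.05 and -1.41 (adjusted p = 0.0236, 0.0395 and 0.0395 by limma). None of the 3 passed without H1227 and H1569 (-0.85, -1.15 and -1.32, adjusted p = 0.0517, 0.0548 and 0.0517). Polyadenylated libraries do not measure mature microRNAs, so these reads come from transcripts across the loci.

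No gene rose past the test, and the genes nearest to it were ordered by p. Mzb1, a chaperone of antibody assembly in plasma cells, read 0.235, 0.267, 0.427 and 0 FPKM in young and 1.03, 1.03, 1.42, 0.841, 0.998 and 1.17 in old mice. The groups did not overlap, the change was 0.76 (SE 0.12), and the adjusted p was 0.0646 by limma. Cd79a, the B-cell receptor chain, had 0.758 to 1.03 FPKM in young and 1.54 to 2.24 in old mice (0.57, adjusted p = 0.109).

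Of 9 B and plasma cell markers tested, from 16 listed, 0 passed, 8 had estimates above 0 (47.1% of all genes tested had), and the median was 0.37. Mzb1 was under 0.5 FPKM in every young mouse and passed the filter only through the old mice. The filter may thus have raised the share of estimates above 0. Over the 8 tested both ways it was 0.47 with all mice and 0.32 without H1227 and H1569. Jchain, the joining chain of secreted antibodies, had 0.535, 0.798, 0.677 and 0.727 FPKM in young and 2.07, 2.83, 5.38, 0.643, 1.98 and 5.22 in old mice (1.11, adjusted p = 0.187). One old mouse, H2290, lay within the young range and the other 5 lay above it.

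Other genes near the top were of mixed function. The antiproliferative Btg1 read 8.11 to 9.06 FPKM in young and 11.7 to 15.6 in old mice (0.57, adjusted p = 0.0939 by limma) and the immediate early factor Egr1 1.85 to 4.7 and 4.28 to 14.6 (1.15, adjusted p = 0.0961). The adipokine Serpina12 read 0.616 to 1.61 in young and 2.13 to 4.8 in old mice (1.09, adjusted p = 0.108), and the ribosome-biogenesis factor Dcaf13 6.65 to 7.8 and 8.57 to 12.9. Old and young mice did not overlap in Btg1, Serpina12 or Dcaf13, an arrangement with the old mice higher that 1.48% of all genes tested had. These genes were named for a small p in this same comparison, so the lack of overlap adds no separate support.

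Major urinary proteins are pheromone-carrying lipocalins made by hepatocytes under growth hormone and androgen. Summed over the family, young hybrids held 1130, 959.9, 1285 and 988 FPKM and old hybrids 318 to 712, with no overlap. Of 18 genes tested, 0 passed, 17 had estimates below 0 (52.9% of all genes tested had) and 7 had all old mice below all young mice (4.7% of all genes). The median was -1.19 (-0.82 without H1227 and H1569). Family members are near-identical copies, so values of single genes are uncertain.

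Mup13 (chromosome 4, 61224307 to 61228286) read 169, 86.1, 200.3 and 79.3 FPKM in young and 33.9, 57.2, 40.9, 43, 40.9 and 49.8 in old mice. Old mice were all lower, and the change of -1.48 (SE 0.25) had an adjusted p of 0.0722 by limma. Mup10 had 33.7, 22.8, 45.9 and 18 FPKM in young and 6.7, 13.4, 8.14, 9.42, 11.8 and 10.7 in old mice (-1.44, adjusted p = 0.0646), and Mup3 684 to 781 and 164 to 576 (-1.37, adjusted p = 0.109). Mup1 and Mup2 overlapped between the groups, with changes of -1.03 and -1.24 (adjusted p = 0.225 and 0.186). Mup20, or darcin, was the 1 member with an estimate above 0, and its estimate was below 0 without H1227 and H1569.

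Sult5a1, a male-biased sulfotransferase, read 12.5, 12.6, 14.5 and 4.08 FPKM in young and 3.7, 3.5, 1.32, 1.21, 0.831 and 0.89 in old mice without overlap (-2.03, adjusted p = 0.0646 by limma). Among 23 male-biased genes 0 passed and the median was -0.09. The female-biased list moved with the 2 libraries that stand apart: its median over 27 genes was -0.39 with all mice and 0.24 without them.

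Lipogenic genes, which build fatty acids from glucose carbon, had a median of -0.76 over 18 genes, 17 with estimates below 0 (52.9% of all genes) and 0 past the test. Fads2, the delta-6 desaturase of polyunsaturated fatty acids (chromosome 19, 10064164 to 10101503), read 270.0, 446, 290.0 and 371 FPKM in young and 93.6, 78.4, 176, 187, 165 and 214 in old mice. The groups did not overlap and the change was -1.23 (SE 0.21; adjusted p = 0.071 by limma). Without H1227 and H1569, the lowest of the old mice, the change was -0.97 and passed the test (adjusted p = 0.0394).

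Acacb, the mitochondrial acetyl-CoA carboxylase, had 8.91 to 11.9 FPKM in young and 1.84 to 8.52 in old mice, and Mlxipl, the carbohydrate-responsive factor ChREBP, 43.4 to 76.3 and 10.1 to 39.6. Neither passed (adjusted p = 0.145 and 0.186 by limma), and in both the old mice were all below the young. Scd1, the stearoyl-CoA desaturase, overlapped widely, from 173 to 600.0 in old and 206 to 1498 in young mice. The list median without H1227 and H1569 was -0.38.

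Hepcidin blocks iron release from macrophages and enterocytes. Hamp read 1826, 2243, 2580 and 1290 FPKM in young and 28.7, 35.7, 1041, 291, 1462 and 511 in old mice, and the change of -2.94 (SE 1.09) did not pass (adjusted p = 0.221 by limma). It was -1.27 without H1227 and H1569. Its paralogue Hamp2 had 2026 to 4049 and 37.7 to 2675 FPKM. Bmp6, the endothelial ligand that induces hepcidin, and Tfr2, the hepatocyte transferrin sensor, changed by -0.76 and -0.58 (adjusted p = 0.205 and 0.205), and 0 of 20 iron genes passed.

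**Figure D3:**
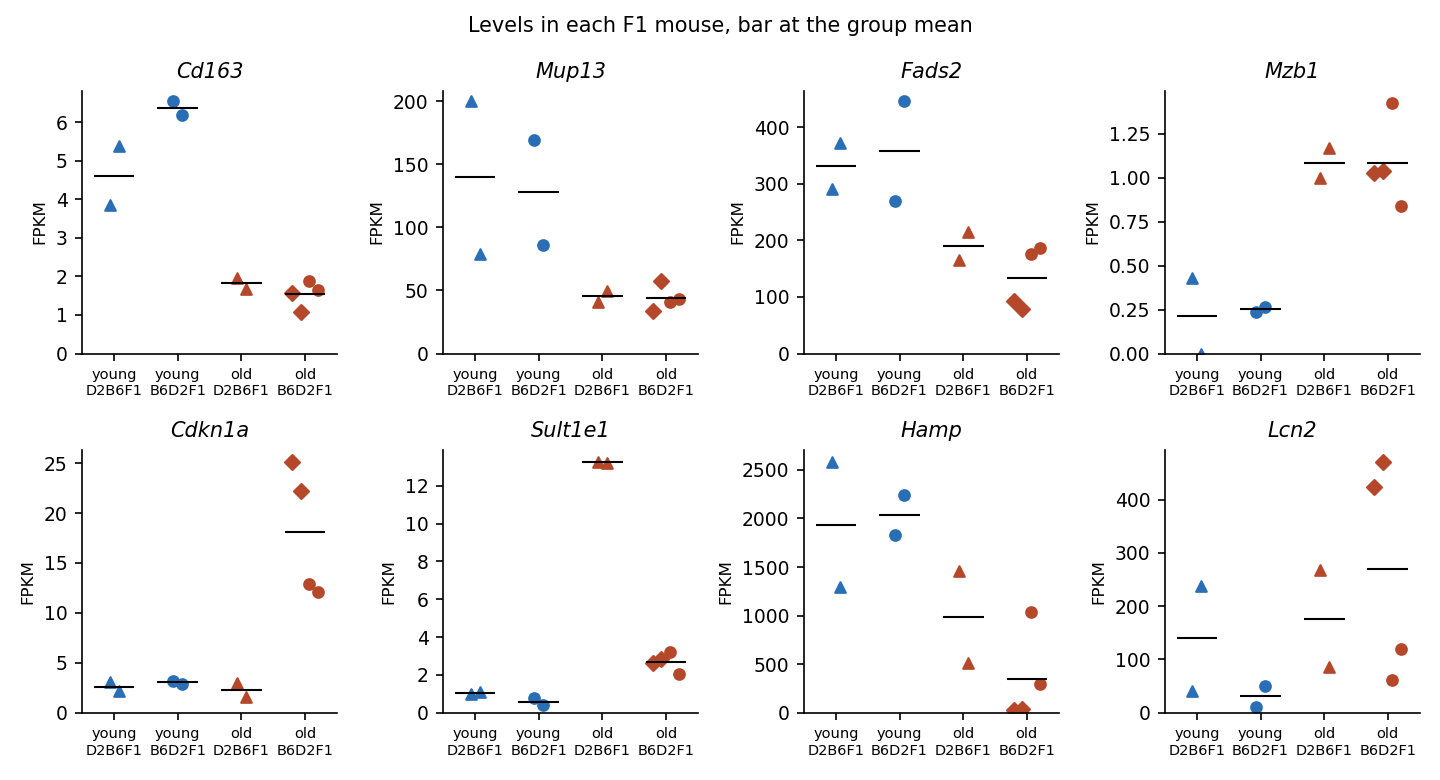
FPKM of 8 genes in each F1 mouse by age and cross, with the bar at the group mean, an axis from 0, and H1227 and H1569 as diamonds. Cd163, Mup13 and Fads2 have all old mice below all young mice and Mzb1 all above. Cdkn1a is high in old B6D2F1 mice and Sult1e1 is highest in old D2B6F1 mice.

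Inflammatory lists moved with the 2 libraries that stand apart, and 0 members of them passed. The filter on low values kept fewer members without H1227 and H1569, so medians are given over the genes tested both ways, with all mice and then without those 2. They were 1.63 and 0.09 over 6 of 12 neutrophil markers, 0.46 and 0.20 over 9 of 12 T and NK cell markers, and 0.21 and -0.03 over 27 acute phase genes. The siderophore-binding Lcn2 had 10.9, 50.2, 41.1 and 238 FPKM in young and 424, 470.4, 61.2, 120.3, 267 and 85.5 in old mice (1.86, adjusted p = 0.281 by limma). The young D2B6F1 mouse H1150 lay within the old range.

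The chemokine Ccl5, made by T and NK cells, had 2.2, 2.82, 1.61 and 1.9 FPKM in young and 18.1, 17.4, 9.51, 4.29, 3.69 and 3.92 in old mice. The groups did not overlap, but the change of 1.50 (SE 0.44) had an adjusted p of 0.186 by limma, and it was 0.87 without H1227 and H1569. The neutrophil calgranulins S100a8 and S100a9 were high in those 2 mice (S100a8 54.2 and 70.6 FPKM, S100a9 67.1 and 78.2), against 1.2 to 1.96 and 2.04 to 3.62 in the other old mice and 0.176 to 2.75 and 0.684 to 4.7 in the young. Serum amyloid Saa1 was highest in a young mouse, H1150, at 3145 FPKM, and 155 to 981 in old mice.

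In the same order, medians were 1.57 and -0.18 over 5 of 6 erythroid markers, 0.43 and -0.06 over 7 of 13 proliferation genes, and 0.66 and 0.19 over 79 cytosolic ribosomal protein genes, with no member past the test. All 79 ribosomal protein genes had estimates above 0, as had 47.1% of all genes tested, and 9 had all old mice above all young mice (1.48% of all genes). Rpl5 read 82 to 90.8 FPKM in young, 98 to 159 in 4 old mice and 302 and 306 in H1227 and H1569. Top2a, the topoisomerase of dividing cells, read 2.25 and 1.88 FPKM in them and 0.0814 to 0.555 in the others.

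Lists of hepatocyte metabolism had lower medians with the same 2 libraries included. The median was -0.35 with all mice and 0.16 without H1227 and H1569 over 35 fatty acid oxidation genes, -0.52 and -0.02 over the 34 xenobiotic P450 genes tested both ways, and -0.40 and 0.06 over 20 bile acid genes, with 0 members past the test. The drug-metabolising Cyp3a11 read 283 to 398 FPKM in young and 160.4 to 608 in old mice, and Cyp7a1, the rate-limiting enzyme of bile acid synthesis, 22.9 to 61.3 and 17.9 to 103. Both overlapped, as did the constitutive androstane receptor target Cyp2b10 (-0.84, adjusted p = 0.211 by limma). The growth factor Igf1 changed by -0.15 and the fasting hormone Fgf21 by 0.34 (adjusted p = 0.583 and 0.628).

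Sinusoidal endothelial markers had nearly the same median with and without the 2 libraries (-0.42 and -0.43 over 16 genes, 0 past the test). Members and crosses differed more. Estimates were above 0 in 5 of the 16 (47.1% of all genes tested), and Lyve1 changed by 1.80 with all mice and -0.11 without the 2. The list median was -0.67 in D2B6F1, -0.33 in B6D2F1 and -0.09 in B6D2F1 without H1227 and H1569. Kdr, the vascular endothelial growth factor receptor, read 10.0, 11.2, 9.8 and 9.87 FPKM in young and 3.04, 2.59, 10.7, 7.34, 5.56 and 5.73 in old mice, with 1 old mouse, H2288, inside the young range. Of 22 sirtuin, NAD and DNA repair genes, 5 had all old mice below all young mice (4.7% of all genes tested had), among them the mitochondrial sirtuins Sirt3 (-0.33) and Sirt4 (-0.38) and the poly-ADP-ribose polymerase Parp1 (-0.29). None passed (adjusted p = 0.204, 0.186 and 0.191 by limma).

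**Figure D4:**
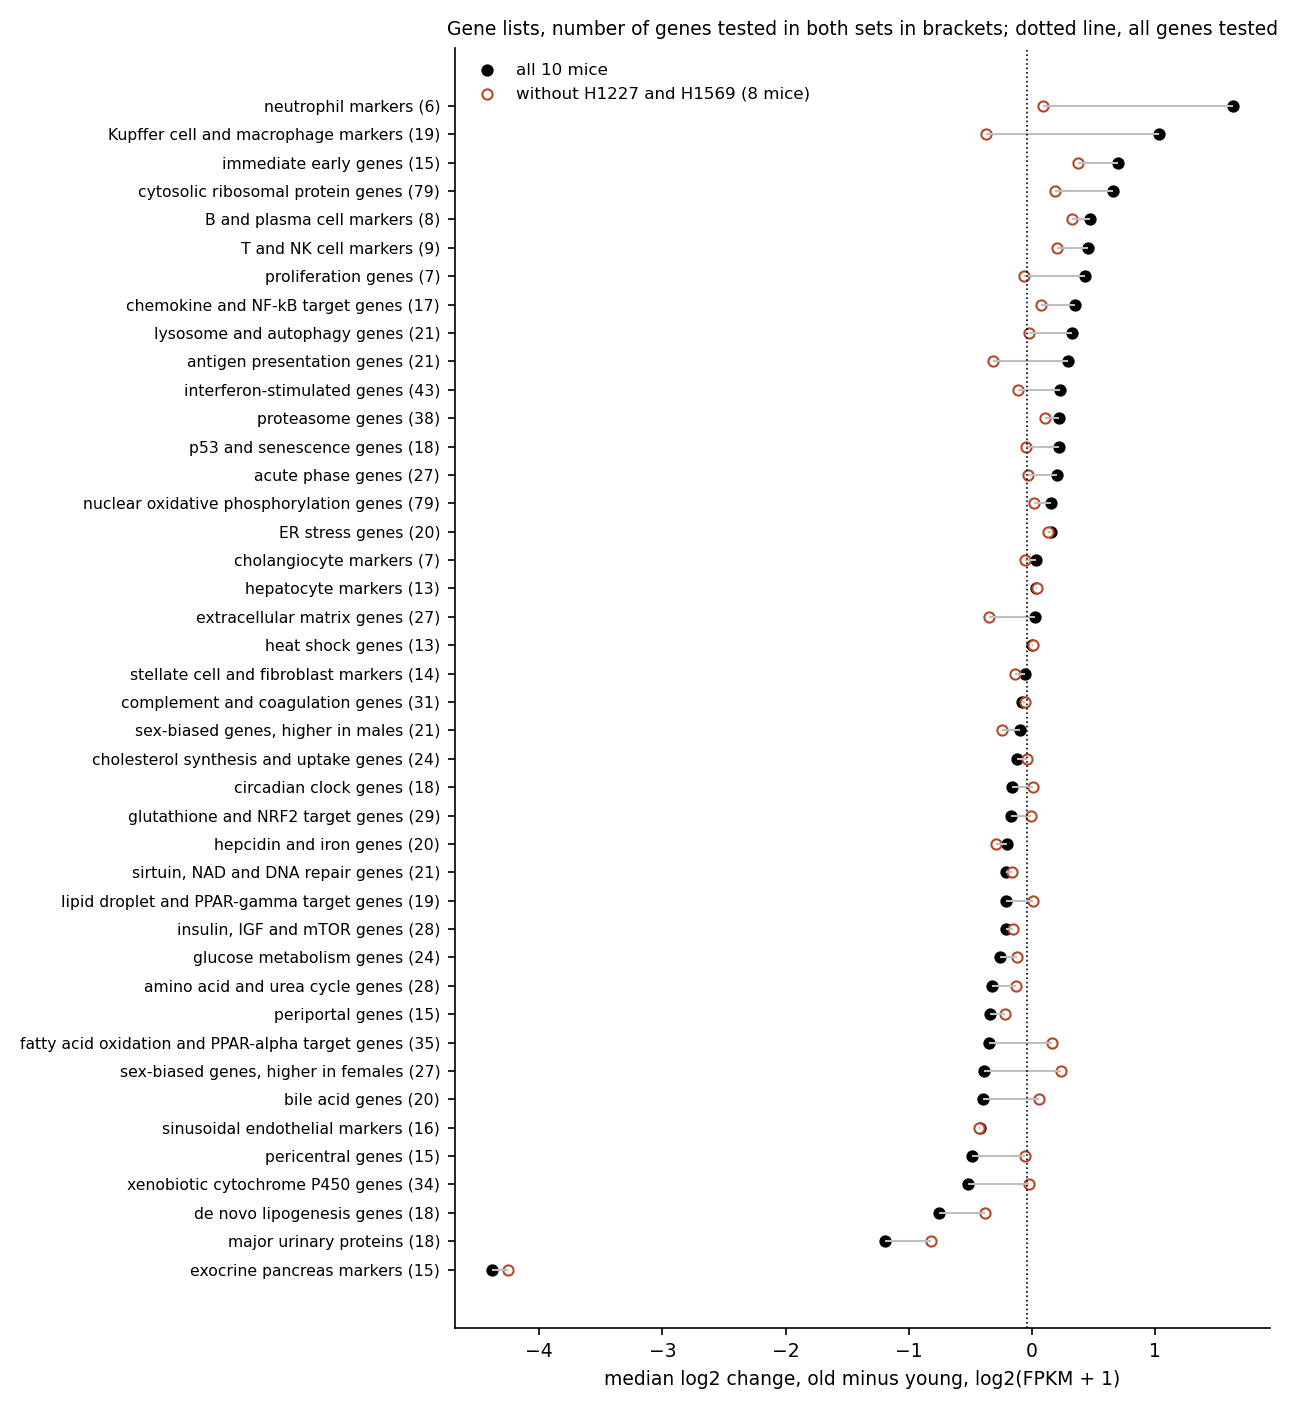
Median log2 change, old minus young, of each gene list over its genes tested both with and without H1227 and H1569 (at least 6), with all 10 mice (black) and without H1227 and H1569 (open red). Pancreatic markers lie at -4.38 and -4.26, and major urinary proteins and lipogenesis lie next below 0. Macrophage and neutrophil lists lie above 1 only with H1227 and H1569 included.

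Whether age acted alike in the reciprocal crosses was tested with an age-by-cross term. By the case identifiers, the old D2B6F1 mice shared a session that held no old B6D2F1 mouse. Among old hybrids, cross and session therefore cannot be told apart. No gene passed (0 higher and 0 lower; 625 and 478 at an unadjusted p under 0.05; 0.0% called in either direction by limma). Arrdc3, an arrestin-domain regulator of receptor turnover, had the smallest p: 60.2 and 42.1 FPKM in the 2 old D2B6F1 mice and 13.9 to 29.3 in all others (term -2.34, SE 0.26, adjusted p = 0.481). Cdkn1a, the p21 inhibitor of cyclin-dependent kinases and a p53 target (chromosome 17, 29093772 to 29100722), was next.

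Cdkn1a stood at 25.2 and 22.2 FPKM in the old B6D2F1 mice on CD, 12.9 and 12.1 in those on HF, 3.03 and 1.55 in the old D2B6F1 mice and 3.2, 2.91, 3.03 and 2.15 in the 4 young mice. All 4 old B6D2F1 mice were above every other hybrid, and the old D2B6F1 mice lay within or below the young range. The age-by-cross term was 2.32 (SE 0.28; p = 7.2e-05 before and 0.481 after adjustment by limma), and the change over both crosses was 1.43 (adjusted p = 0.264). The p53 and senescence list had a median of 0.49 in B6D2F1 and -0.09 in D2B6F1 over 21 genes. Over the 18 tested both ways it was 0.35 in B6D2F1 and 0.23 without H1227 and H1569.

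Fitted within B6D2F1, 1 gene rose, Cdkn1a (2.17, SE 0.18, adjusted p = 0.0306; 0.00748% of genes), and 2 fell (0.015%), the squamous keratins Krt4 (-2.83) and Krt13 (-3.08; limma on all 10 mice with an age term in each cross). Within D2B6F1, 1 rose, the oestrogen sulfotransferase Sult1e1 (2.79, SE 0.18, adjusted p = 0.011), and 1 fell, Krt4 (-2.55), again 0.00748% of genes each. Sult1e1 read 13.3 and 13.2 FPKM in old D2B6F1, 2.64, 2.83, 3.19 and 2.05 in old B6D2F1 and 0.8, 0.389, 1 and 1.11 in young mice. Old and young did not overlap in it, although no age-by-cross difference passed (-1.58, adjusted p = 0.547).

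Without H1227 and H1569, Cdkn1a still passed within B6D2F1 (1.92, adjusted p = 0.016 by limma), now as 1 of 5 genes higher, beside Gadd45b (1.99), Trp53inp1 (1.75), Slc17a8 and Wfdc15b (0.0384% of genes), with 7 lower (0.0537%). Gadd45b, a stress-inducible growth-arrest gene, had 6.25, 5.66, 9.89 and 8.73 FPKM in old B6D2F1, 2.94 and 1.67 in old D2B6F1 and 1.53 to 3.08 in young mice. Trp53inp1, a p53-induced nuclear protein, had 25.6 and 20.9 FPKM in H2288 and H2290 and 4.46 to 10.4 in all others. In that smaller set the age-by-cross term was called in 2 genes, higher in Gadd45b and lower in Mir677 (0.00768% of genes each). H2288 and H2290 are both on HF and of 1 session, so in that set old B6D2F1, diet and session cannot be told apart.

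Diet was tested in the same way, and no gene had an age effect that differed between CD and HF past the threshold (0 higher, 0 lower; 571 and 509 at an unadjusted p under 0.05; limma). The smallest p belonged to Spata24 (term -1.53, adjusted p = 0.498). Rbm3, a cold-inducible RNA-binding protein, read 114, 120.0 and 68.2 FPKM in the 3 old mice on CD and 29.7, 17.6 and 26.7 in the 3 on HF (term -2.71). Of those on CD, 2 are H1227 and H1569.

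The last question was whether ageing differs between hybrids and inbred strains. It was put to 1 fit of 121 mice labelled female (62 old and 49 young inbred mice), with strain and diet as covariates. Both inbred groups held mice younger and mice older than the hybrids of that age group, so the age spans compared are unlike. Inbred strains had 1007 genes higher and 683 lower with age (7.54% and 5.11% of 13357 genes, by limma). The F1 change minus the inbred change passed in 0 genes in either direction (0.0%). At an unadjusted p under 0.05 there were 733 higher and 1216 lower. With inbred mice of nearer ages alone (45 old and 26 young), 0 genes passed as well. With 6 and 4 hybrids the difference has wide errors, and a p above the threshold does not show that both aged alike.

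Genes named above were set beside their change in inbred strains. The inbred values include 1 mouse labelled female that had male-like levels of sex-linked genes. Without it, 931 genes were higher and 672 lower with age in inbred strains. Cdkn1a rose by 1.24 (SE 0.19) in inbred mice, and the difference was -0.07 (SE 0.63). Mup13 fell by 2.05 in inbred mice, with a difference of 0.58 (SE 0.83), and Lcn2 rose by 1.86, with a difference of 0.11 (SE 1.27). Mzb1 and Jchain rose by 0.66 and 1.02 in inbred mice. Cd163 and Fads2 fell by 0.53 and 0.49 (adjusted p = 0.00502 and 0.0153 by limma), and their differences, -0.77 and -0.70, did not pass. All 18 major urinary protein genes fell in inbred strains.

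For the pancreatic genes the estimates lay far apart. Ctrb1 changed by -0.33 (SE 0.58, adjusted p = 0.761 by limma) in inbred strains, and the difference of -5.50 (SE 1.89) did not pass (p = 0.00454, adjusted p = 0.298). None of the 15 pancreatic markers was called in inbred strains, where single livers reached 1760 FPKM of Ctrb1 in the young and 1334 in the old group.

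The smallest p for the difference belonged to Mir6910 (8 to 11 reads in young and 1 to 5 in old hybrids), then to Atat1, the alpha-tubulin acetyltransferase. Atat1 read 7.51, 7.99, 9.45 and 6.12 FPKM in young and 1.58, 2.06, 5.01, 5.73, 3.51 and 2.87 in old hybrids without overlap, and medians of 5.01 and 4.76 in young and old inbred mice. The difference was -0.92 (SE 0.22; adjusted p = 0.298 by limma). Dcaf13 came next (0.53, SE 0.13), and its inbred change was 0.01.

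**Figure D5:**
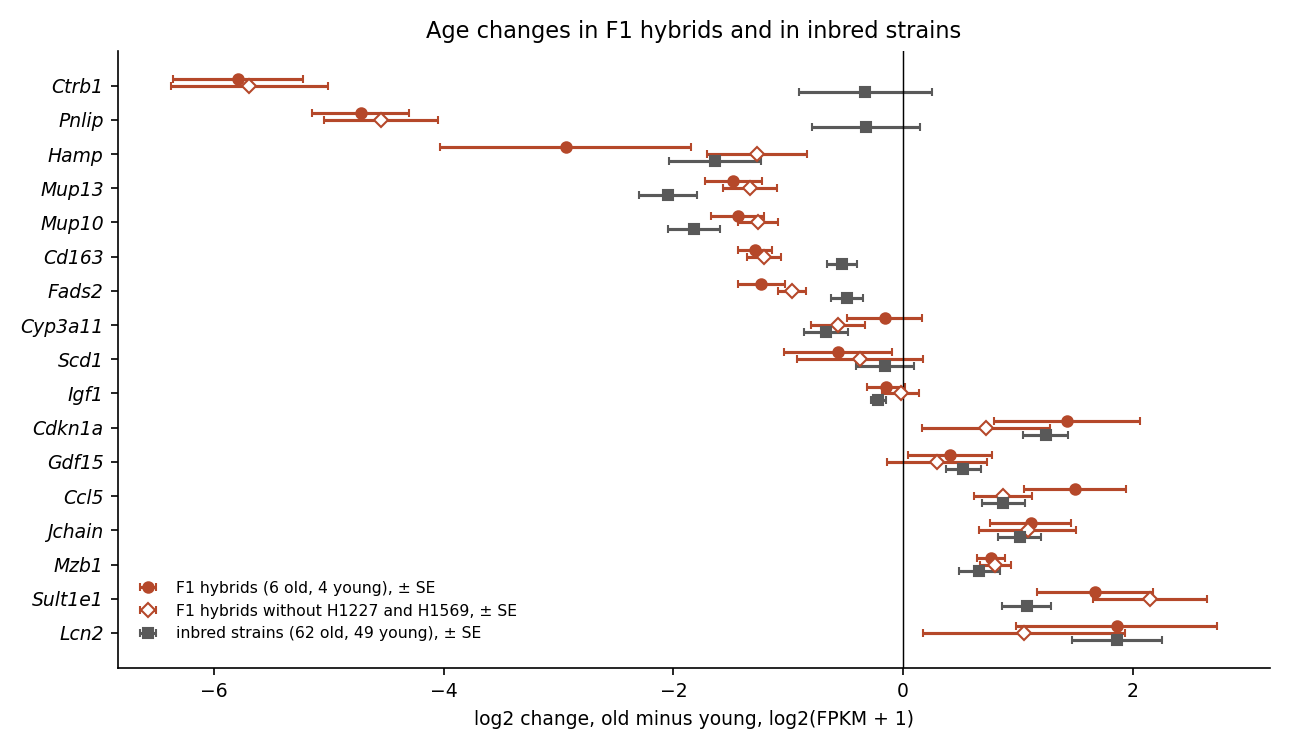
Log2 change with age (points) and SE (bars) in 17 genes, in F1 hybrids with all 10 mice, in hybrids without H1227 and H1569, and in inbred strains. Mup13, Hamp, Cdkn1a, Jchain and Lcn2 lie on the same side of 0 in each set. Ctrb1 and Pnlip lie near -5.8 and -4.7 in hybrids and near -0.3 in inbred strains.

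Spread among mice was described per gene as the SD of log2(FPKM + 1) after removal of diet means. Its median over the genes tested was 0.281 in the 6 old and 0.14 in the 4 young hybrids, and 79.4% of genes had the larger SD in old mice. Without H1227 and H1569 the old value was 0.17, and 60% of genes had the larger SD in old mice. H0646 was then the only old mouse on CD, and H2288 and H2290 share cross, diet and session, which limits this value. Inbred mice, which also differ in genotype, had 0.347 in the old and 0.266 in the young group. The young hybrids share 1 session and the old ones come from 4, and the part of session in the spread was not tested.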

How the data were processed

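Liver RNA of 10 female F1 mice was measured as polyadenylated RNA-seq in read pairs, per the labels' protocols. The authors deposited FPKM per transcript for all 150 samples, and the same values again in the other unit, on a log2(FPKM + 1) scale. STAR 2.6.0c and mm10 (GRCm38) are named in the submitters' processing notes, and how reads were counted into FPKM is not given in the sources used here. Of the 150 columns, 7 repeat the library of another mouse and were left out. None is labelled as an F1 mouse, and 1 of them, labelled BXD101, repeats the library of the young F1 mouse H1154.

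Each of 25394 gene symbols was represented by 1 transcript, the one with the most reads (mean FPKM times length) over all libraries, so values describe that transcript. Genes with a mean of at least 0.5 FPKM over the mice fitted were tested on log2(FPKM + 1), pseudocount 1, with diet as a covariate, in limma 3.58.1 (R 4.3.3; trend and robust), with Benjamini-Hochberg adjustment over all genes tested. A change on this scale understates that of low genes. Whole reads were recovered for 100% of F1 values (tolerance 0.02) and tested with limma-voom as an alternative. The test was run on simulated data first. Labels do not say how litters or cages were shared, so whether the mice are independent is not known. The p-values set each difference against the spread between these mice and take them as independent.

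Named genes were the 12 largest rises and falls past an adjusted p of 0.05 (with fewer, those of smallest p), the 3 of smallest p in each list described, a fixed set of liver ageing genes, and the 8 of smallest p for each interaction. Others, such as Lyz2, Marco, Krt4 and Ccl5, were chosen after their values were seen. The mice were taken by a rule on their labels alone, which used no expression values. That rule and the gene lists were chosen with earlier results of these data known.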

Additional observations from a re-analysis of the deposited data

Results flagged for a closer look

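In groups of 4 or 6 mice, 14 of 174 values tested had 1 mouse far from the rest by Dixon's criterion, which chance meets in about 1 group in 20. Among old mice, pancreatic transcripts gave 5 of them, all at low levels. Ctrb1 was lowest in H0646 at 0.0599 FPKM (next 1.11), Prss2, Sycn and Zg16 were highest in H1569 at 1.15, 0.589 and 0.81 FPKM (next 0.448, 0.131 and 0.217), and Ctrc was highest in H2288 at 0.145 FPKM (next 0.0471). Each of these old mice still lay below every young mouse.

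The young D2B6F1 mouse on HF, H1150, was flagged most often. The criterion takes the gap from 1 mouse to the next, so it can hardly flag H1227 and H1569, which lie apart together. Its Saa1, an acute phase apolipoprotein, was at 3145 FPKM (next 405), its Top2a at 0.555 (next 0.157), and its Apoa1 was lowest at 3973 (next 5584). Its library also had the highest share of uniquely mapped reads (89.4%, next 88.4%), the highest mismatch rate (0.42%, next 0.34%) and the highest slope of log2 expression on log2 transcript length (0.0507, next 0.0381) of the young mice. Whether these library measures bear on its expression values was not tested.

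The young B6D2F1 mouse on HF, H1302, was lowest in the ribosomal protein gene Rpl22 at 36.5 FPKM (next 40.7) and highest in Kdr at 11.2 (next 10.0). Among old mice, Gpnmb was highest in H0646 at 0.603 FPKM (next 0.181).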

How the results depend on the processing

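The 25 genes lower in old hybrids kept their direction under every alternative run except Snora68, which was 0.94 higher in a fit of all females with collection session. The count of lower genes ran from 13 (without the young mouse H1302) to 38 (without H1150) when 1 mouse was left out, and that of higher genes from 0 to 1. Lower genes numbered 15 with a filter of 5 FPKM and 15 without H1227 and H1569. They numbered 0 on 1 flow cell alone, 1 in a fit of all females, 0 in that fit with session and 0 in it without H1227 and H1569. Within crosses, higher and lower genes numbered 1 and 2 in B6D2F1, 1 and 1 in D2B6F1, and 5 and 7 in B6D2F1 without H1227 and H1569. Higher genes numbered 1 with cross as a covariate, 1 with no covariate and 4 with the length slope. Array weights, whose estimation did not fully converge, gave 407 higher and 1280 lower genes. They gave 2868 and 3688 for age by diet, and 406 and 842 for hybrids minus inbred strains. With no filter, age by diet gave 2 higher and 3 lower, age by cross 1 higher, and hybrids minus inbred strains 11 lower. Leaving out 1 mouse gave 0 to 2175 higher and 0 to 3198 lower for age by diet, the upper values without H0646, when the old CD group is H1227 and H1569 alone. It gave 0 for age by cross and for the difference from inbred strains. Without H1227 and H1569, age by cross gave 1 higher and 1 lower, and the ratio of old to young SD was 1.21 in place of 2. The cause of these shifts was not tested. Alternatives that leave out or average H1227 and H1569, use 1 flow cell, add the length slope or use recovered reads were chosen after seeing the data. So was the fit without the inbred mouse with male-like levels. No paired analysis was possible because the replicate numbers only name mice. With 10 mice and 1 young mouse for each cross and diet, small changes were not detectable, and age and session cannot be told apart.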

Other observations

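Immediate early genes, transcription factors induced within minutes of a stimulus, had a median of 0.70 over 15 genes, 14 with estimates above 0 (47.1% of all genes tested had) and 0 past the test by limma, and 0.37 without H1227 and H1569. Antigen presentation genes had a median of 0.29 over 21 genes with all mice and -0.32 without H1227 and H1569. Among them Nlrc5, the transactivator of class I genes, changed by -0.61 and -0.51 in the same order, and H2-Aa, a class II chain, by 1.08 and -0.37. Extracellular matrix genes had medians of 0.02 and -0.35 over the 27 genes tested both ways, with fibronectin (Fn1) at -1.08 and -0.62. Proteasome genes had medians of 0.22 and 0.11 over 38 genes, and insulin, IGF and mTOR genes -0.21 and -0.15 over 28 genes. None of these genes passed the test.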
